A study of Mus musculus with 24 samples.

Results

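The genes of calcitonin gene-related peptide (CGRP) and substance P signaling were followed in FACS-sorted L4 dorsal root ganglion (DRG) neurons of control and Nav-Tsc2 mice. They were 7 genes chosen by name out of 47643 gene identifiers in the count files: the peptide precursor genes Calca, Calcb and Tac1, the receptor gene Calcrl with the genes Ramp1 and Ramp2 of its accessory proteins, and the substance P receptor gene Tacr1. All 7 had counts in at least 1 library, and 6 passed the filter on low counts, Ramp1 being left out. Control mice carried Nav1.8-Cre, 1 floxed and 1 wild-type Tsc2 allele (Tsc2 flox/+) and the Rosa26-ZsGreen reporter. Nav-Tsc2 mice carried Nav1.8-Cre, 1 floxed and 1 null allele (Tsc2 flox/null) and the same reporter. Tsc2 is the gene of tuberin, a negative regulator of the growth-promoting kinase complex mTORC1. The strain was a mix of C57BL/6 and AJ and the mice were 8 to 9 weeks old. Nav1.8-Cre is active in nociceptors and also in some myelinated sensory neurons, and all mice, controls included, carried Cre and a floxed allele, so the control cells are heterozygous for Tsc2. Each genotype had 4 mice, replicates 1 and 2 male and replicates 3 and 4 female. The ganglia lay on the side opposite a sciatic nerve crush made 3 d earlier. From each mouse 3 libraries of 100 sorted cells were sequenced, and the counts of these technical libraries were added up, which leaves 1 value per mouse and gene.

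Peptidergic nociceptors store CGRP and substance P in dense core vesicles and release them in the spinal cord and, from their peripheral endings, in skin and viscera, where they cause vasodilation and plasma leakage. CGRP acts on a receptor made of the calcitonin receptor-like receptor, encoded by Calcrl, and the accessory protein RAMP1, which couples to Gs and raises cAMP. With RAMP2 in place of RAMP1, the same receptor binds adrenomedullin. Substance P acts on the neurokinin 1 receptor, encoded by Tacr1, which couples to Gq and phospholipase C. Calca gives CGRP alpha or calcitonin by alternative splicing and Calcb gives CGRP beta, while Tac1 encodes both substance P and neurokinin A. A count per gene does not separate the calcitonin transcript of Calca from the CGRP transcript.

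The sequences of Calca and Calcb are shown first, since reads of these paralogs could be mistaken for each other. The 2 genes are neighbours on mouse chromosome 7 (GRCm38), Calca on the minus strand at chr7:114631478-114636357 and Calcb on the plus strand at chr7:114718643-114723365. The longest stretch that their coding sequences share was 61 bases, in capitals below between 20 bases of each gene's own flank. It crosses an intron in each gene and covers the start of the mature CGRP peptide.
Calca, chr7:114632541-114634469, minus strand: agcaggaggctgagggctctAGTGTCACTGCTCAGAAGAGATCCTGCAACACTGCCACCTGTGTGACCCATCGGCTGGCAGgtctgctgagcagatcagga
Calcb, chr7:114721711-114722033, plus strand: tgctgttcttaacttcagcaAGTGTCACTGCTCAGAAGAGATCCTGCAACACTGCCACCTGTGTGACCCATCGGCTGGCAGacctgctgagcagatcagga
Reads were 50 bases long, and 12 of the 1678 distinct 50-base words in the Calca transcripts (0.715%) also occurred in Calcb. These 12 words were 0.952% of the Calcb words, and no other gene shared any word with either of them. Tac1 (chr6:7554879-7565834, plus strand) and Ramp1 (chr1:91179822-91225196, plus strand) shared none. Tacr1 (chr6:82402334-82560104, plus strand) shared 0.965% and Calcrl (chr2:84330626-84425411, minus strand) 0.325% of their words with other genes. Ramp2 (chr11:101246028-101259546, plus strand) stood apart, since 33.4% of its exon bases lie in exons of Vps25 on the same strand and 30.7% of its words occurred there too.

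The bases before the start of Calca and of Tac1 are shown because these precursors, both known from peptidergic nociceptors, differed in their change. They were taken from RefSeq (GRCm38.p6), where 5 of the 7 genes had an entry; Calcb and Ramp2 were missing. Capitals mark the letters TGACG, the first 5 letters of the cAMP response element TGACGTCA, or the same letters on the other strand, CGTCA. The stretch of Tac1 ends where GENCODE places the earliest start of the gene.
Calca, chr7:114636358-114636607, minus strand: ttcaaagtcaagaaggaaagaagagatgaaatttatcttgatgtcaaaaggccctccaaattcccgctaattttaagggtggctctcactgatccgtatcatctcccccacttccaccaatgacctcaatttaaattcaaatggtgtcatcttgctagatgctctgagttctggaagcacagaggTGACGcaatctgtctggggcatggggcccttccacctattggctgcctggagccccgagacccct
Tac1, chr6:7554811-7554878, plus strand: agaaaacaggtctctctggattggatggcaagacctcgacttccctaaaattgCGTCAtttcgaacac
In the 250 bases before the RefSeq start, TGACG was found on either strand once for Calca, 2 times for Tac1 and once for Tacr1. Calcrl and Ramp1 had no match. Of 32851 mouse promoters of that length, 17.8% held TGACG and 1.55% the whole element TGACGTCA, which none of the 5 held.

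The libraries held between 8339220 and 34228180 counts on genes, and the mice between 47959617 and 61290435. Values are given as CPM, a gene's counts for every 1000000 counts of its mouse after scaling by the TMM method, and 17178 genes were tested between genotypes with edgeR's quasi-likelihood test. A gene is called when its Benjamini-Hochberg adjusted p was under 0.05 and its log2 fold change over 0.5 in either direction. Tsc2 itself, the deleted gene, lay between 13.4 and 24.7 CPM in control and between 7.30 and 10.95 CPM in Nav-Tsc2 mice, without overlap (log2 fold change -1.24 ± 0.22 SE, edgeR adjusted p = 0.00400). The sorted cells carried the markers of nociceptors: Scn10a, the Nav1.8 gene, averaged 670 CPM in control and 608 CPM in Nav-Tsc2 mice (edgeR adjusted p = 0.526). The summed level of 8 nociceptor markers ranged from 3270 to 3819 CPM in control and from 3432 to 4159 CPM in Nav-Tsc2 mice. In samples of pooled cells, fewer cells of a type and less RNA per cell cannot be told apart.

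Calca and Calcrl were called lower in Nav-Tsc2 mice and Tacr1 higher, while Calcb, Tac1 and Ramp2 were not called. These are 3 calls among 6 tested genes, beside 17.1% of all 17178 genes, 8.00% lower and 9.12% higher. Tacr1 passed the low-count filter only through the Nav-Tsc2 mice and so had to be higher there. Of 197 tested genes that reached the filter's minimum in no control mouse, 176 were called higher. The values of the 2 genotypes did not overlap for Calca, Calcb, Calcrl, Ramp2 and Tacr1, beside 26.9% of all genes tested.

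**Figure D1:**
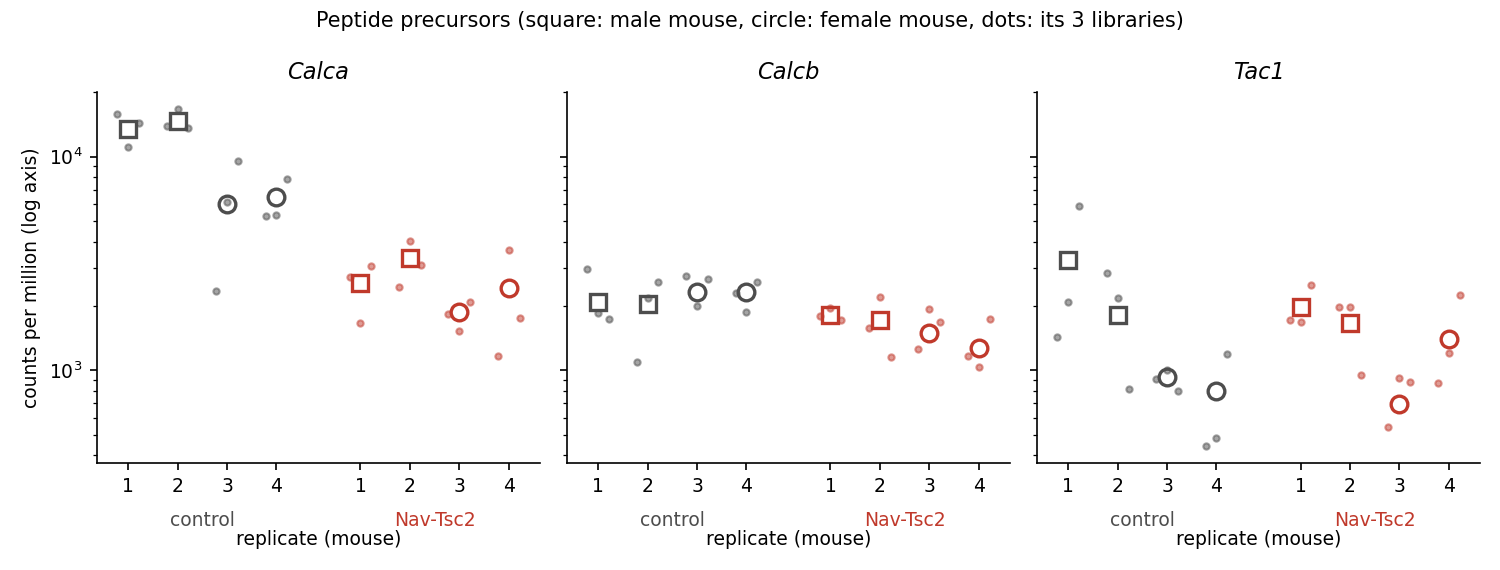
CPM (log axis) of Calca, Calcb and Tac1 in each mouse (squares, male; circles, female) and in its 3 libraries (dots), control in grey and Nav-Tsc2 in red. The 4 Nav-Tsc2 mice lie at 1876 to 3367 CPM for Calca, under every control mouse, while for Tac1 the genotypes overlap.

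Calca, the precursor gene of CGRP alpha, was lower in every Nav-Tsc2 mouse than in any control mouse. Control mice 1 to 4 had 13465, 14634, 6039 and 6511 CPM. Nav-Tsc2 mice 1 to 4 had 2554, 3367, 1876 and 2429 CPM. Within control the male mice stood above the female mice. Calca made up between 0.614% and 1.41% of all counts of a control mouse, and between 0.187% and 0.339% of those of a Nav-Tsc2 mouse. The log2 fold change was -1.99 ± 0.31 SE (95% interval -2.69 to -1.29, edgeR adjusted p = 0.00215). Single libraries ranged from 2347 to 16752 CPM in control and from 1161 to 4041 CPM in Nav-Tsc2, so that single libraries of 100 cells did overlap although the mice did not.

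Calcb, the precursor gene of CGRP beta, moved far less. It had 2091, 2033, 2334 and 2328 CPM in control mice 1 to 4. It had 1821, 1724, 1487 and 1268 CPM in Nav-Tsc2 mice 1 to 4. The genotypes did not overlap, and the gap between them was narrow in the male mice and wider in the female mice. The log2 fold change of -0.48 ± 0.12 SE (95% interval -0.74 to -0.22) had an edgeR adjusted p of 0.0172 but lay just inside the limit of 0.5, so Calcb was not called. The call turned on that limit: the log2 fold change was -0.50 without the library of the lowest total (Nav-Tsc2 3B), -0.50 without control mouse 1, -0.52 without control mouse 2, -0.56 without Nav-Tsc2 mouse 1 and -0.53 without Nav-Tsc2 mouse 2, all of them called.

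Tac1, the precursor gene of substance P and neurokinin A, was not called. Control mice 1 to 4 had 3268, 1822, 934 and 798 CPM. Nav-Tsc2 mice 1 to 4 had 1988, 1671, 697 and 1408 CPM. The genotypes overlapped, with Nav-Tsc2 mouse 3 the lowest of all and control mouse 1 the highest. The log2 fold change was -0.24 ± 0.45 SE, and its 95% interval from -1.25 to 0.77 takes in both a fall and a rise (edgeR adjusted p = 0.759). The direction rested on control mouse 1, without which the log2 fold change was 0.28. Within that mouse the 3 libraries held 1427, 2100 and 5856 CPM.

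**Figure D2:**
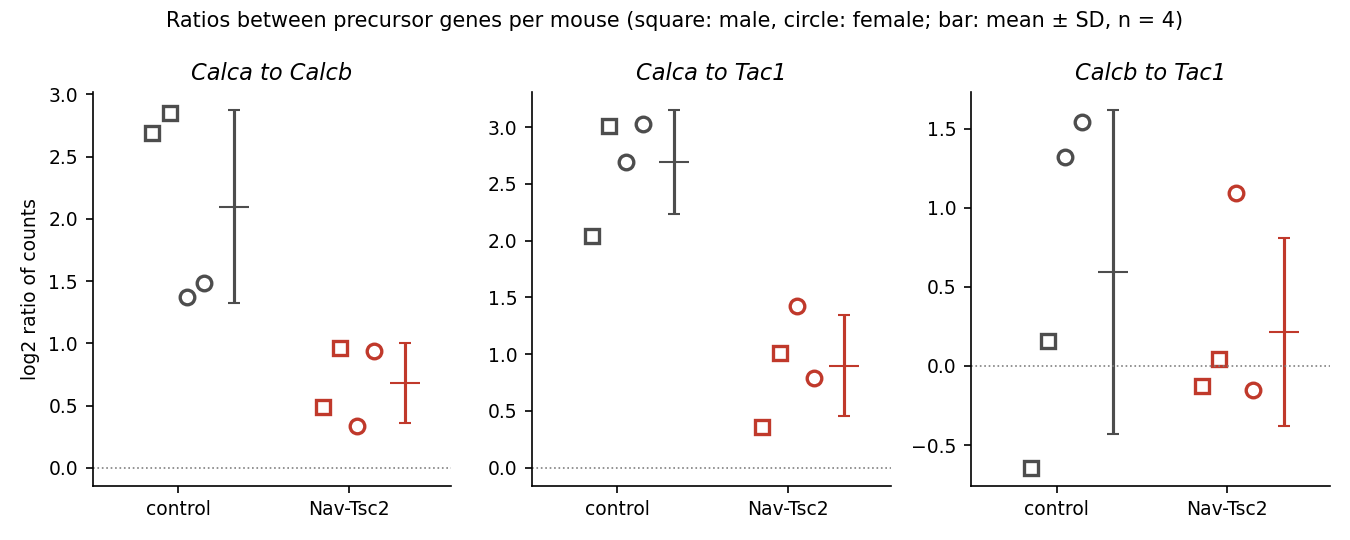
Log2 ratio of the summed counts of 2 precursor genes in each mouse, with the mean and SD over 4 mice beside them (squares, male; circles, female). Ratios of Calca to Calcb and to Tac1 are lower in every Nav-Tsc2 mouse than in any control mouse, while ratios of Calcb to Tac1 overlap.

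Ratios of counts within a mouse do not depend on the scaling between mice. They serve to compare genotypes and not the levels of 2 genes, as counts are not divided by length. In control mice 1 to 4, Calca had 6.44, 7.20, 2.59 and 2.80 counts for each count of Calcb. In Nav-Tsc2 mice 1 to 4 it had 1.40, 1.95, 1.26 and 1.92. The log2 ratio was lower by 1.42 in Nav-Tsc2 mice, from 2.10 ± 0.78 to 0.68 ± 0.32 (SD, n = 4; exact two-sided permutation test, p = 0.0286, adjusted over 3 ratios 0.0429). For each count of Tac1 there were 4.12, 8.03, 6.47 and 8.16 counts of Calca in control mice 1 to 4, and 1.28, 2.02, 2.69 and 1.73 in Nav-Tsc2 mice. That log2 ratio went from 2.69 ± 0.46 to 0.90 ± 0.45 (SD, n = 4; exact two-sided permutation test, p = 0.0286, adjusted 0.0429). With 4 mice against 4, an exact p of 0.0286 is the smallest possible. Calca was thus lower relative to both other precursors as well as to all counts. The ratio of Calcb to Tac1 ranged from 0.640 to 2.92 in control and from 0.901 to 2.13 in Nav-Tsc2 mice, and its log2 value differed by -0.38 (exact two-sided permutation test, n = 4 per genotype, p = 0.571, adjusted 0.571).

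Levels of different genes were then compared per kilobase of exon, since counts also grow with transcript length. The length merged the exons of all annotated transcripts of a gene (1684 bases for Calca, 1264 for Calcb and 3399 for Tac1). It can exceed the length of the transcript that is made, so the order and ranks below depend on the annotation. In control mice, Calca had 6035 ± 2683 CPM per kb (SD, n = 4), Calcb 1738 ± 124, Tac1 502 ± 334, Calcrl 2.21 ± 1.8, Ramp2 0.493 ± 0.141, Ramp1 0.0729 ± 0.146 and Tacr1 0.00150 ± 0.00174. The mice of neighbours in that order overlapped for Calcrl and Ramp2 and for Ramp1 and Tacr1, and not for the other neighbours. In Nav-Tsc2 mice Calca had 1518 ± 366 CPM per kb and Calcb 1246 ± 196. Tac1 followed with 424 ± 162, Ramp2 with 0.915 ± 0.0972, Calcrl with 0.238 ± 0.0997, Tacr1 with 0.194 ± 0.0717 and Ramp1 with 0.0363 ± 0.0269. There the mice overlapped for Calca and Calcb and for Calcrl and Tacr1. Among 17119 tested genes with a known length, the level of Calca per kb ranked 2 in control and 20 in Nav-Tsc2 mice, that of Calcb 16 and 27, and that of Tac1 77 and 94. Ramp2 ranked 12796 and 11166, Calcrl 8425 and 14706, and Tacr1 17073 and 15127.

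**Figure D3:**
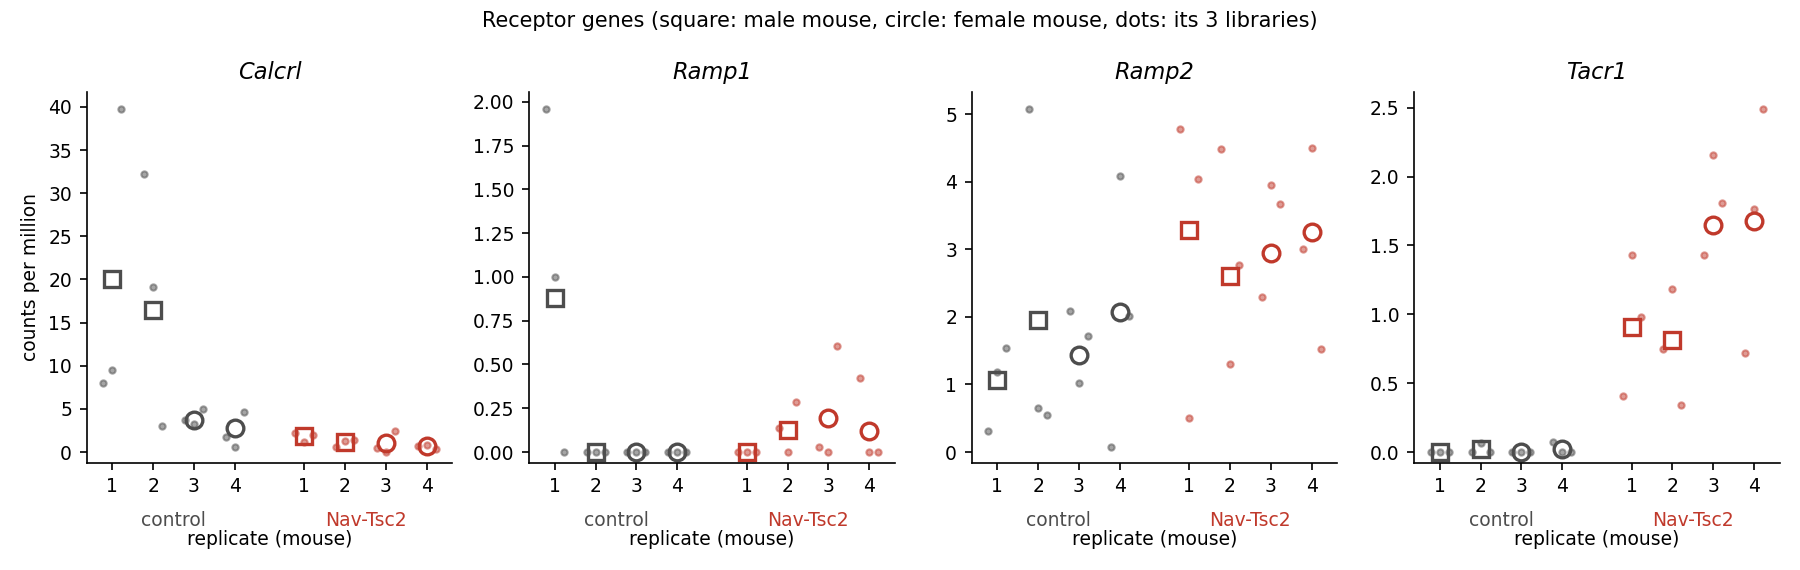
CPM of Calcrl, Ramp1, Ramp2 and Tacr1 (linear axes, 1 scale per gene) in each mouse (squares, male; circles, female) and in its 3 libraries (dots). Calcrl lies at 1.83 CPM or less in the Nav-Tsc2 mice, and Tacr1 at or near 0 in all control libraries.

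Calcrl, the gene of the receptor subunit that binds CGRP, was low and fell further. Control mice 1 to 4 had 20.1, 16.5, 3.76 and 2.79 CPM. Nav-Tsc2 mice 1 to 4 had 1.83, 1.15, 0.996 and 0.677 CPM. Both male control mice were far above the female control mice, and all control mice were above all Nav-Tsc2 mice. Its log2 fold change came to -3.21 ± 0.67 SE (95% interval -4.72 to -1.70, edgeR adjusted p = 0.00896). In female mice alone it was -1.97 and was not called (edgeR adjusted p = 0.149), while in male mice alone it was -3.63 (edgeR adjusted p = 0.00569). These values rested on 2401 counts in control and 255 in Nav-Tsc2 mice. Calcrl is also a gene of endothelial cells. Of 9 endothelial markers, 5 were tested, 3 of them called higher in Nav-Tsc2 mice (beside 9.12% of all genes) and none lower. Of the 3, Flt1 and Ly6c1 passed the filter only through the Nav-Tsc2 mice and so had to be higher there. The third, Kdr, had 0.358 CPM in control and 1.76 CPM in Nav-Tsc2 mice (log2 fold change 2.29, edgeR adjusted p = 0.0469). The summed level of the 9 ranged from 14.1 to 22.05 CPM in control and from 19.8 to 35.4 CPM in Nav-Tsc2 mice, most of the control sum coming from Egfl7. The endothelial genes Cdh5 (0.0511 CPM in control and 0.115 CPM in Nav-Tsc2 mice) and Cldn5 (0.0151 and 0.0239 CPM) were near 0 in both. Pecam1 (0.422 and 0.315 CPM), Emcn (0.384 and 0.0309 CPM) and Egfl7 (16.5 and 13.8 CPM, not called) had lower means in Nav-Tsc2 mice. Tek (0.510 and 0.563 CPM, not called) had a slightly higher one.

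Ramp1, the accessory protein gene that makes the receptor specific for CGRP, was close to undetected. It had 52 counts in control, all of them in 2 libraries of control mouse 1 (31 and 21), and 0 in the other 3 control mice. In Nav-Tsc2 mice 1 to 4 it had 0, 7, 12 and 7 counts, in 5 of 12 libraries. A count of 0 allows up to 3 counts, that is 0.0547, 0.0552 and 0.0599 CPM in control mice 2 to 4 and 0.0626 CPM in Nav-Tsc2 mouse 1. These floors are without TMM scaling and cover counting error only, as the reads carry no molecular identifiers. Ramp1 did not pass the filter and was not tested.

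Ramp2, whose protein turns the calcitonin receptor-like receptor into an adrenomedullin receptor, had 1.07, 1.95, 1.43 and 2.07 CPM in control mice 1 to 4. It had 3.29, 2.60, 2.94 and 3.25 CPM in Nav-Tsc2 mice 1 to 4, all above the control mice. The log2 fold change was 0.89 ± 0.33 SE (95% interval 0.14 to 1.64), which did not pass the adjustment (edgeR adjusted p = 0.0893, unadjusted 0.0243). DESeq2 gave 0.88 with an adjusted p of 0.0438 and called it. Libraries of 1 mouse differed by up to 54.9-fold, from 1 count in 1 library of control mouse 4 to 56 in another. Vps25, whose exons overlap those of Ramp2, had 1.74 ± 0.19 CPM in control and 1.27 ± 0.21 CPM in Nav-Tsc2 mice (SD, n = 4; edgeR adjusted p = 0.410), in the opposite direction.

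Tacr1, the substance P receptor gene, was all but absent from control mice, with 0, 1, 0 and 1 counts in mice 1 to 4. Nav-Tsc2 mice 1 to 4 had 44, 46, 101 and 99 counts, that is 0.905, 0.814, 1.65 and 1.68 CPM. Each of the 12 Nav-Tsc2 libraries had counts, against 2 of the 12 control libraries. Set against the total counts of each genotype, without TMM scaling, the 290 counts in Nav-Tsc2 mice and the 2 in control mice give a 144-fold ratio. Its exact 95% interval was 39.5 to 1194 for counting error only. The fitted log2 fold change was 6.76 ± 0.92 SE (edgeR adjusted p = 0.00101), a value that depends on the prior count. In females alone it was not called (edgeR adjusted p = 0.0619). Of the genes tested, 91 had at most 3 counts in the 4 control mice together and 2 had at most 3 counts in the 4 Nav-Tsc2 mice together. Nav-Tsc2 libraries had counts for 17891 to 20466 genes and control libraries for 15925 to 18544, and alignments to several places made up 39.3% to 42.6% and 37.5% to 39.6% of their totals. The part of these library differences was not tested. Among marker genes of other cell types, the endothelial genes Flt1 (0.0338 CPM in control and 8.56 CPM in Nav-Tsc2 mice) and Ly6c1 (0.0182 and 2.63 CPM), the mural cell gene Acta2 (0.131 and 7.25 CPM) and the macrophage gene Cx3cr1 (0.0328 and 5.71 CPM) rose from near 0 as well. Their part in the rise of Tacr1 was not tested, and they were chosen after their values were seen. Summed levels went from 4.54 to 48.2 CPM in control and 19.9 to 151 CPM in Nav-Tsc2 mice for 6 mural genes. For 7 macrophage genes they went from 3.94 to 9.32 CPM in control and 8.48 to 25.7 CPM in Nav-Tsc2 mice. The sum of 10 glial genes was lower in Nav-Tsc2 mice, at 1875 to 2444 CPM against 2862 to 3023 CPM in control. Of the 9 tested, S100b was called lower (939 CPM in control and 98.6 CPM in Nav-Tsc2 mice) and none higher. Sums of 6 fibroblast genes overlapped, at 73.1 to 236 CPM in control and 121 to 196 CPM in Nav-Tsc2 mice. The macrophage gene C1qa (0.0201 and 0.0212 CPM) stayed level. The macrophage gene C1qb (1.75 and 0.574 CPM, without a call) had a lower mean in Nav-Tsc2 mice. So did the untested mural genes Myh11 (0.246 and 0.0294 CPM) and Des (0.472 and 0.167 CPM). The remaining mural and macrophage genes had higher means there. Flt1, Ly6c1 and Cx3cr1 passed the low-count filter only through the Nav-Tsc2 mice.

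**Figure D4:**
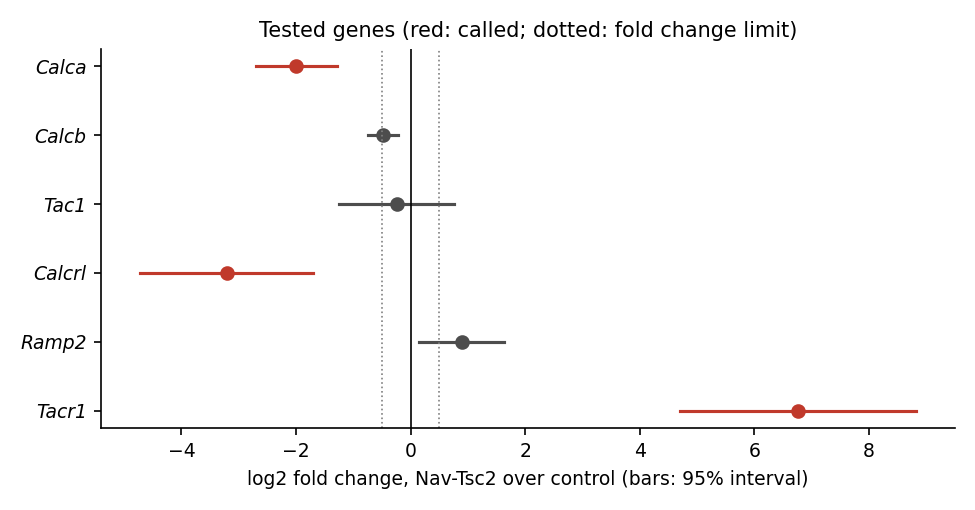
Log2 fold change between Nav-Tsc2 and control mice with its 95% interval for the 6 tested genes (red, called; dotted lines, limits at -0.5 and 0.5). Calca and Calcrl lie below the lower limit and Tacr1 far above the upper one, while the interval of Tac1 spans 0.

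The spread between technical libraries shows how far 100 cells represent a mouse. On the log2(CPM + 1) scale, the SD between the 3 libraries of a mouse was 0.55 for Calca, 0.39 for Calcb, 0.69 for Tac1 and 0.87 for Calcrl. Between control mice it was 0.67 for Calca, 0.10 for Calcb, 0.94 for Tac1 and 1.27 for Calcrl, and between Nav-Tsc2 mice it was 0.35, 0.23, 0.66 and 0.31 in the same order. A mouse value is a sum of 3 libraries, so its spread is expected to be smaller than that of a single library even where mice do not differ. Ramp2 had an SD of 0.78 between libraries but of 0.26 between control and 0.12 between Nav-Tsc2 mice. The highest library of a mouse exceeded the lowest by a median of 1.57-fold for Calca, 1.601-fold for Calcb and 2.34-fold for Tac1.

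Deviations of libraries from their own mouse were used to look for genes that vary alike, as a description over 24 libraries that share their mice and 8450 other genes of at least 10 CPM. Calca and Calcb hardly varied together (Pearson r = -0.02), nor did Calca and Tac1 (0.15) or Calcb and Tac1 (-0.07). The genes most like Calca were Cisd2 (r = 0.85), Scn2b (0.84) and Itpripl1 (0.83). Those most like Calcb were Chmp5 (0.89), Nexn (0.85) and Tbce (0.80), and those most like Tac1 were Ppif (0.79), Best1 (0.77) and Rit2 (0.77). These are the highest values among 8450 genes, and how high chance alone would reach was not tested. Calcrl followed Tac1 in the 12 control libraries (r = 0.93) and not in the 12 Nav-Tsc2 libraries (-0.15), where it had few counts. In control mouse 1 the 3 libraries had 8.02, 9.56 and 39.7 CPM of Calcrl beside the 1427, 2100 and 5856 CPM of Tac1. In control mouse 2 they had 32.2, 19.1 and 2.99 CPM of Calcrl beside 2843, 2179 and 814 CPM of Tac1. Control mouse 3 did not show this order, with 3.71, 3.25 and 4.99 CPM of Calcrl beside 914, 1002 and 796 CPM of Tac1. Control mouse 4 had 1.79, 0.584 and 4.69 CPM of Calcrl beside 442, 485 and 1191 CPM of Tac1. This pair was chosen after its values were seen.

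Male and female mice were compared because the 2 control male mice stood apart for several of these genes. With genotype in the fit, males exceeded females by 0.81 ± 0.16 SE on the log2 scale for Calca (edgeR adjusted p = 0.539), by 1.18 ± 0.27 for Tac1 (0.655) and by 1.69 ± 0.40 for Calcrl (0.655), and by 0.09 ± 0.12 for Calcb (0.907). None passed the adjustment over 17178 genes, of which 5 did (0.0291%). Sex and the replicate numbers 1 and 2 against 3 and 4 cannot be told apart from any other difference between these mice. In male mice alone, Calca changed by -2.26 (edgeR adjusted p = 0.00300), Calcb by -0.23 (0.110), Tac1 by -0.49 (0.306) and Tacr1 by 6.23 (0.0407) on the log2 scale. In female mice alone, Calca changed by -1.54 (edgeR adjusted p = 0.0167), Calcb by -0.76 (0.0453) and Tac1 by 0.28 (0.715). The genotype effect in males minus that in females was -0.70 ± 0.23 SE for Calca (unadjusted 0.0152, edgeR adjusted p = 0.410). It was 0.54 ± 0.14 for Calcb (unadjusted 0.00475, edgeR adjusted p = 0.304) and -1.65 ± 0.55 for Calcrl (unadjusted 0.0177, edgeR adjusted p = 0.429). An interaction of this kind passed the adjustment for 1 of 17178 genes (0.00582%) and had an unadjusted p under 0.05 for 1583 (9.22%).

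**Figure D5:**
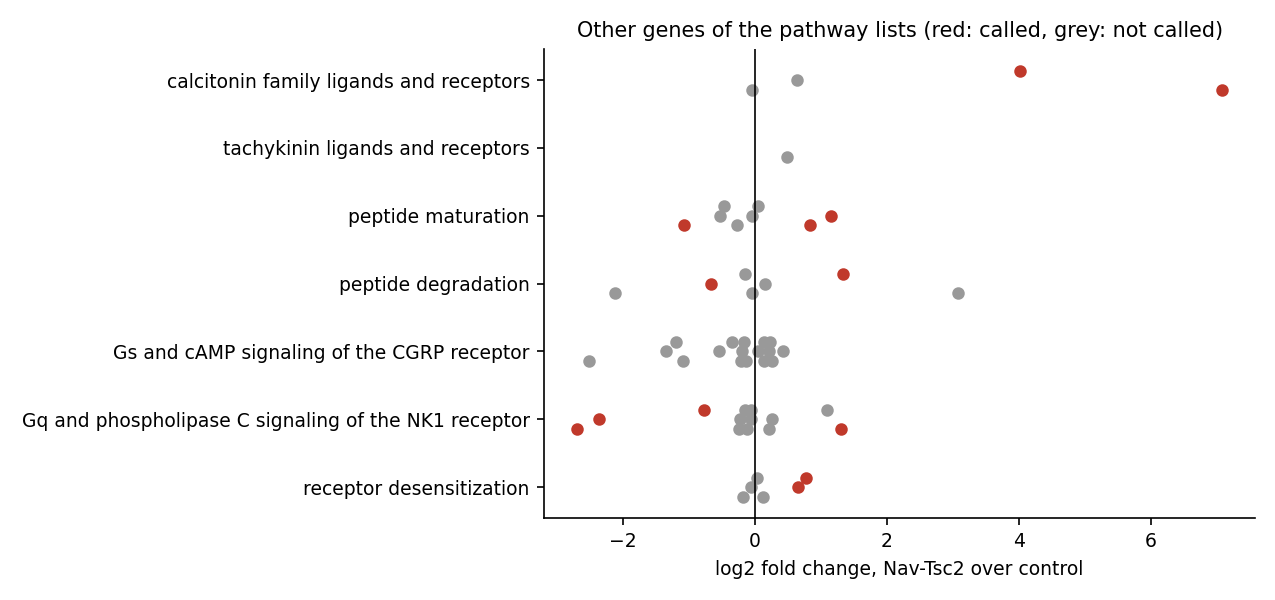
Log2 fold changes of the 56 tested genes of the pathway lists other than the 7 genes above, 1 dot per gene and 1 row per list (red, called; grey, not called). None of the 17 Gs and cAMP genes is called, and Adm2 lies at the far right.

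The other genes of the pathways were taken from 7 lists with 63 genes, of which 56 were tested and 13 called (23.2%, beside 17.1% of all genes tested). Of these calls, Adm and Adm2 passed the low-count filter only through the Nav-Tsc2 mice, as Tacr1 did, and so had to be higher there. Without them 11 of 54 were called (20.4%). The median log2 fold change of all 56 was -0.05, beside 0.01 for all genes tested. Of the other calcitonin family genes, 4 of 6 were tested, and the 2 called higher were Adm2 and Adm. Adm2, the gene of the related peptide adrenomedullin 2, lay between 0.0169 and 0.0602 CPM in control and between 3.87 and 6.34 CPM in Nav-Tsc2 mice. Adm, the adrenomedullin gene, averaged 0.0499 ± 0.0877 CPM in control and 0.823 ± 0.582 CPM in Nav-Tsc2 mice (SD, n = 4), a call made in 8 of 17 other fits. Ramp3 had 1.27 CPM in control and 1.98 CPM in Nav-Tsc2 mice (edgeR adjusted p = 0.711), and Calcr, the calcitonin receptor gene, had 0.0136 and 0.0133 CPM and was not tested. Of the other tachykinin genes, only Tacr2 was tested (1.94 CPM in control and 2.71 CPM in Nav-Tsc2 mice, edgeR adjusted p = 0.777).

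Of 8 genes that mature the precursors, 1 was called lower, 2 higher and 5 were not called (median log2 fold change -0.15), beside 8.00% lower and 9.12% higher over all genes. Scg5, the gene of the chaperone 7B2 of the convertase PC2, fell from 313 ± 43.5 to 149 ± 15.0 CPM (SD, n = 4; log2 fold change -1.07, edgeR adjusted p = 0.000381). Pcsk1n, an inhibitor of the convertase PC1, rose from 22.9 ± 4.64 to 50.9 ± 14.7 CPM (1.15, edgeR adjusted p = 0.00473). Cpe, the carboxypeptidase that trims the cut peptides, rose from 740 ± 207 to 1318 ± 155 CPM (0.83, edgeR adjusted p = 0.0116). The amidating enzyme gene Pam, which makes the amide end that CGRP and substance P both need, had 176 CPM in control and 122 CPM in Nav-Tsc2 mice, without a call (-0.53, edgeR adjusted p = 0.196).

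Of 7 tested peptide degradation genes, 1 was called lower and 1 higher, beside the same shares of all genes. Ece2 was the lower one, from 55.3 ± 5.62 to 34.7 ± 2.12 CPM (SD, n = 4; log2 fold change -0.67, edgeR adjusted p = 0.00198). Nln, the gene of the peptidase neurolysin, was the higher one, from 6.47 ± 2.36 to 16.3 ± 2.63 CPM (1.34, edgeR adjusted p = 0.00682). Mme, the gene of neprilysin, which cleaves substance P, had 1.31 CPM in control and 0.302 CPM in Nav-Tsc2 mice, also without a call (edgeR adjusted p = 0.0687).

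Downstream of the receptors, none of 17 Gs, adenylyl cyclase, protein kinase A and CREB genes was called (beside 17.1% of all genes), and their median log2 fold change was -0.16. The 3 smallest adjusted p of the 17 were those of Adcy1, Prkar1a and Adcy7. Adcy1 went from 10.0 to 3.92 CPM (-1.35, edgeR adjusted p = 0.0560) and Adcy7 from 9.96 to 1.74 CPM (-2.52, edgeR adjusted p = 0.0741). Prkar1a went the other way, from 1205 to 1446 CPM (0.26, edgeR adjusted p = 0.0664). Of 13 tested Gq and phospholipase C genes, 3 were called lower and 1 higher (median -0.12), beside 8.00% lower and 9.12% higher over all genes. Counts were not compared between lists. Plcb1, a phospholipase C beta gene, fell from 38.9 ± 4.81 to 7.54 ± 1.61 CPM (SD, n = 4; log2 fold change -2.37, edgeR adjusted p = 5.68e-05). Prkcb, a protein kinase C gene, fell from 108 ± 31.4 to 16.6 ± 6.96 CPM (-2.70, edgeR adjusted p = 0.000471). The third was Prkce, also a protein kinase C gene, which went from 261 to 152 CPM (-0.78, edgeR adjusted p = 0.00157) and is named outside the rule because it completes the count. Itpr3, a gene of the inositol trisphosphate receptor, rose from 5.17 ± 2.62 to 12.8 ± 3.51 CPM (1.30, edgeR adjusted p = 0.0487), a call made in 4 of 17 other fits. Of 6 receptor desensitization genes, 2 were called higher, beside 9.12% of all genes, and 4 were not called. Arrb1, the beta-arrestin 1 gene, rose from 110 ± 9.19 to 173 ± 5.12 CPM (0.65, edgeR adjusted p = 0.000667), and Grk2, a receptor kinase gene, from 46.8 ± 8.32 to 80.0 ± 13.0 CPM (0.77, edgeR adjusted p = 0.00681).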

How the data were processed

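The data were RNA-seq counts of 24 libraries, each of 100 sorted cells, with 3 technical libraries per mouse and 4 mice per genotype. The authors amplified cDNA with a SMARTer Ultra Low kit, which does not mark strand, sequenced single reads of 50 bases, aligned them to mm10 with STAR and deposited 1 raw count per gene and library from HTSeq; FastQC and DESeq2 are also named in the submitters' processing notes, and versions, annotation release and counting options are not given in the sources used here. Lines of reads not assigned to a gene (median 48.4% of control and 50.7% of Nav-Tsc2 totals) were left out. The authors' table of their own DESeq2 comparison (size-factor scaled counts, fold changes, p-values) was not used.

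Counts were summed per mouse and tested in R 4.3.3 with edgeR 4.0.16 (filterByExpr at a minimum count of 10, TMM, quasi-likelihood F test). Dividing the absolute log2 fold change by the root of F gave its standard error. Symbols, exon lengths and coordinates came from GENCODE vM21 (GRCm38), in which 47224 of 47643 identifiers matched, and promoters from RefSeq. Exact permutation tests used scipy 1.17.1. The 7 genes, the lists and the tests were chosen with earlier results of these data known. Named beside the 7 genes and Tsc2 were at most 2 lower and 2 higher called genes of each list by adjusted p, the 3 genes most like each precursor, and the markers; the choice of other named genes followed their values. The test of the sex term was added after seeing the data. Whether mice of a genotype came from separate litters is not stated. The scripts were tested on simulated data. Alternatives were DESeq2 1.42.0, its size factors within edgeR, a replicate block, all genes unfiltered, upper-quartile scaling, equal weights for libraries, sex as covariate, limma-voom 3.58.1 on 24 libraries with mouse as random effect, each sex alone, no fold change limit, leaving out each mouse and, added after seeing the data, leaving out the library of the lowest total.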

Additional observations from a re-analysis of the deposited data

Results flagged for a closer look

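A mouse far from the others was looked for in 20 groups of 4 mice (7 genes and 3 ratios in 2 genotypes). In 2, a mouse's gap to the nearest other mouse, as a share of the range, exceeded Dixon's 95% critical value for 4 samples. Chance gives about 1 in 20 for normally distributed values in separate groups, but the ratios reuse the genes. Ramp1 was at 0.881 CPM in control mouse 1 and at 0 in the other control mice. With all others at 0 the gap was the whole range, so any count would have been flagged. The log2 ratio of Calcb to Tac1 was 1.09 in Nav-Tsc2 mouse 3, with the other Nav-Tsc2 mice between -0.15 and 0.05.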

How the results depend on the processing

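Over 20 other fits, Calca was called lower in all 20 (log2 fold change -2.26 to -1.54). Calcrl and Tacr1 kept their calls in 19 each, the exception being females only (-1.97 and 7.13). For Tacr1 this is no separate support, since it passed the low-count filter only through the Nav-Tsc2 mice. In the main fit, all 91 tested genes with at most 3 counts in the 4 control mice together were called. Calcb was also called with upper-quartile scaling (-0.51), without the library of the lowest total (-0.50), with no log2 fold change limit (-0.48) and in females only (-0.76). Ramp2 was called only by DESeq2 (0.88). Tac1, called in none, was above 0 with 24 libraries and mouse as random effect (0.0032), in females only (0.28) and without control mouse 1 (0.28). With each mouse left out in turn, log2 fold changes ranged from -2.18 to -1.76 for Calca, -0.56 to -0.39 for Calcb, -0.48 to 0.28 for Tac1, -3.53 to -2.72 for Calcrl, 0.73 to 1.03 for Ramp2 and 6.39 to 7.25 for Tacr1. The genes called lower then ranged from 995 to 1577 and higher from 1150 to 1925, and the log2 ratios differed by -1.66 to -1.17 (Calca to Calcb), -2.01 to -1.62 (Calca to Tac1) and -0.79 to -0.06 (Calcb to Tac1). The 24-library fit called 2705 genes higher, beside 1567, and DESeq2 called 8 other pathway genes lower, beside 5; the cause was not tested. The 24-library fit put the median over all genes at a log2 fold change of 0.14. Deviations of equally numbered mice correlated at 0.083, 0.108, 0.019 and 0.107 over 8445 genes, not all over 0.1, so the numbers were not treated as pairs. This turns on the pseudocount of 1, since 4 of 4 pairs passed with 0.01 (0.146 to 0.238), 3 with 0.1 or 0.5 and 0 with 2. A replicate block changed no call of the 6 genes (Calca -1.91, Calcb -0.49, Tac1 -0.12, Calcrl -2.82, Ramp2 0.93, Tacr1 6.81) and called 1116 genes lower and 1329 higher. For genes of few counts, as Ramp1, a count of 0 gives only an upper limit.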
